A study of Oryza sativa with 24 samples.

Results

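DNA methylation was compared between the reciprocal F1 hybrids of the rice cultivars Nipponbare (Oryza sativa ssp. japonica) and 93-11 (ssp. indica). The members were all peaks of the DNA methylation lists of the hybrid labelled Nipponbare/93-11 and the hybrid labelled 93-11/Nipponbare, together 49026 of the 410072 peaks in the 16 lists of the series. Shoots were taken at the 4-leaf stage after 4 weeks in soil in a greenhouse, and methylated genomic DNA was enriched with digestion by McrBC, a bacterial enzyme that cuts DNA carrying methylated cytosines. The parents' DNA methylation lists and the H3K4me3, H3K9ac and H3K27me3 lists of both hybrids and both parents, from chromatin immunoprecipitation on shoots of the same lines, served for comparison. Each hybrid had 1 DNA methylation library, made from whole shoots that hold many cell types. No difference could therefore be tested against replicate error, and each difference given is one between libraries. The labels do not say which name of a hybrid is its seed parent, so the names are used as given. How many plants were pooled is not given in the sources used here.

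Plants methylate cytosines in several sequence contexts, and most of this methylation lies on transposons and other repeats, where it keeps them silent and is guided to many sites by small RNAs. A pair of reciprocal hybrids receives the same nuclear genomes from the same parents, and the hybrids differ in which parent gave the egg cell, the plastids and the mitochondria. A comparison between them therefore asks whether the direction of a cross goes with a difference in methylation. H3K4me3 and H3K9ac mark active gene starts, and H3K27me3 is set by Polycomb complexes on repressed genes.

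Most peaks of each hybrid were also listed in the other, and the hybrid-only peaks were nearly equal in number. Nipponbare/93-11 had 24331 peaks covering 47.9 Mb and 93-11/Nipponbare had 24695 covering 48.6 Mb, of the 372 Mb spanned by the lists. A peak was called shared when a peak of the other hybrid overlapped it by at least 1 bp, and otherwise hybrid-only. In Nipponbare/93-11, 5082 peaks were not listed in 93-11/Nipponbare, which is 20.9% of its list (exact Clopper-Pearson 95% interval 20.4 to 21.4%). In 93-11/Nipponbare, 5427 peaks were not listed in Nipponbare/93-11, which is 22.0% (21.5 to 22.5%). These intervals cover counting error only, and so do all others given. The corresponding shares between the parents were 45.8% of Nipponbare and 41.7% of 93-11 DNA methylation peaks. The hybrids' histone lists differed less: hybrid-only peaks were 6.24 and 3.58% of the lists for H3K4me3, 8.81 and 3.88% for H3K9ac, and 12.5 and 13.0% for H3K27me3, with Nipponbare/93-11 first in each pair. Read depth is unknown for every list, and a peak that is not listed may have missed the authors' threshold.

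Where the hybrids shared a peak, the peaks matched closely, and most differences were of whole peaks. Of the 19249 shared peaks of Nipponbare/93-11, 19174 overlapped 1 peak of the other hybrid and 75 overlapped 2. The median shared peak of Nipponbare/93-11 had 96.2% of its length under the other hybrid's peaks (quartiles 89.5 and 99.9%), and that of 93-11/Nipponbare 97.3%. Among 19063 nuclear pairs that matched 1 to 1, starts lay a median of 72 bp apart and ends 75 bp apart. Nipponbare/93-11 had the wider peak in 10035 of these pairs and 93-11/Nipponbare in 8970, with median widths of 1638 and 1650 bp. A width difference of 2-fold or more occurred in 339 pairs (1.78%). Of the bases under a peak in either hybrid, 55.3% were under a peak in both. Hybrid-only peaks held 10.7 Mb in Nipponbare/93-11 and 11.2 Mb in 93-11/Nipponbare, whereas the unmatched flanks of shared peaks held 2.86 and 3.06 Mb.

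Few hybrid-only peaks lay beside a peak of the other hybrid. On the nuclear chromosomes, the 5078 Nipponbare/93-11-only peaks lay a median of 4341 bp from the nearest peak of the other hybrid (quartiles 2030 and 8613 bp), and the 5416 93-11/Nipponbare-only peaks a median of 4299 bp. Only 4.35 and 4.87% lay within 500 bp of one. The nearest peak of the same list was about as far away, at medians of 4415 bp for Nipponbare/93-11-only and 4643 bp for shared peaks of that list, and 4253 and 4568 bp in the list of 93-11/Nipponbare.

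Narrow peaks and very wide peaks were the ones that differed most between the hybrids. Nipponbare/93-11-only peaks had a median width of 1428 bp (quartiles 1046 and 2584 bp) against 1638 bp (1273 and 2290 bp) for shared peaks. For 93-11/Nipponbare the medians were 1383 bp (1065 and 2235 bp) against 1650 bp (1251 and 2319 bp). The medians hide a long upper tail: the widest 5% of hybrid-only peaks began at 5263 bp in Nipponbare/93-11 and 5726 bp in 93-11/Nipponbare, against 3626 and 3640 bp for shared peaks. Among peaks up to 1000 bp wide, 40.7% (38.9 to 42.7%) of Nipponbare/93-11 and 35.2% (33.4 to 36.9%) of 93-11/Nipponbare peaks were hybrid-only. Between 1500 and 2000 bp these shares were 12.6% (11.8 to 13.6%) and 14.9% (14.0 to 15.9%). They were higher again above 4000 bp, at 37.8 and 38.4% up to 5000 bp, 49.2 and 44.1% up to 7500 bp, and 57.6% (49.1 to 65.8%) and 63.0% (56.5 to 69.2%) above that. Of the widest 1% of each list, 134 of 244 peaks of Nipponbare/93-11 and 159 of 247 of 93-11/Nipponbare were hybrid-only.

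**Figure D1:**
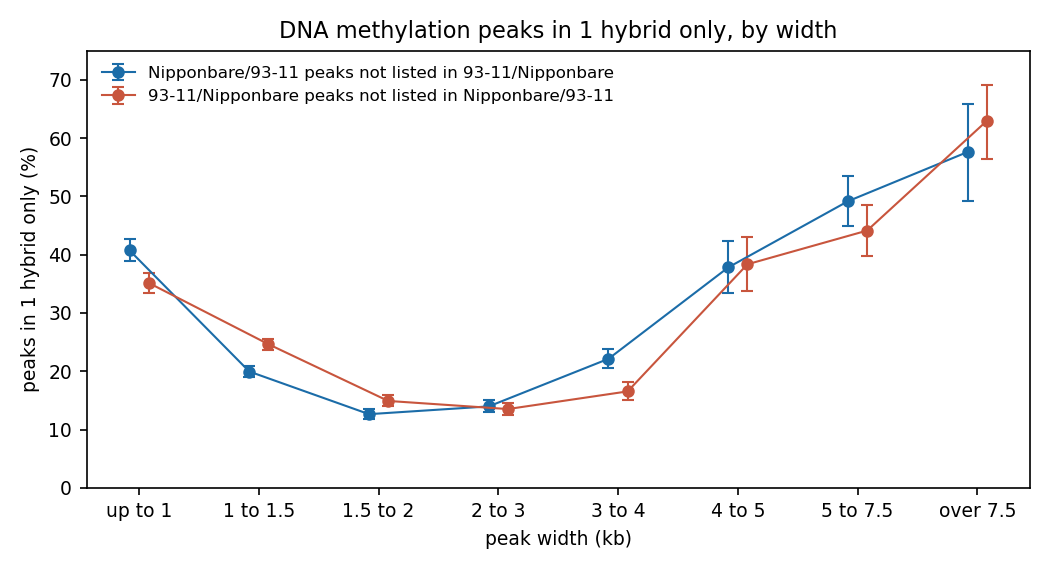
Share of DNA methylation peaks listed in 1 hybrid only (y axis, percent) by peak width (x axis, kb, 8 classes), for Nipponbare/93-11 (blue) and 93-11/Nipponbare (red); points are shares and bars exact 95% intervals for counting error. Both hybrids have their lowest shares, 12.6 to 14.9%, in the classes from 1.5 to 3 kb and their highest, 57.6 and 63.0%, above 7.5 kb.

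The number of peaks did not fall evenly with width. Nipponbare/93-11 had 674 peaks of 3400 to 3600 bp, more than the 537 of 3200 to 3400 bp and the 395 of 3600 to 3800 bp. In 4 equal classes from 4800 to 5600 bp it had 85, 121, 149 and 59 peaks. In 93-11/Nipponbare the class of 3400 to 3600 bp held 593 peaks, with 598 in the class below and 355 in that above, and the 4 classes from 4800 to 5600 bp held 78, 102, 87 and 53. In the class of 5200 to 5400 bp, 81 of the 149 Nipponbare/93-11 peaks were hybrid-only (54.4%), compared with 29 of the 87 of 93-11/Nipponbare (33.3%). In that of 3400 to 3600 bp the shares were 21.2 and 12.3%. These classes were singled out after their values were seen.

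The hybrid-only peaks of the reciprocal crosses differed in the parent that listed them. Of the 5082 Nipponbare/93-11-only peaks, 1781 were listed in 93-11 alone of the parents (35.0%, 33.7 to 36.4%) and 797 in Nipponbare alone (15.7%, 14.7 to 16.7%). Of the 5427 93-11/Nipponbare-only peaks, 725 were listed in 93-11 alone (13.4%, 12.5 to 14.3%) and 2387 in Nipponbare alone (44.0%, 42.7 to 45.3%). When a parent alone listed a hybrid-only peak, it was thus more often the parent named second in the hybrid's label. Over all peaks of Nipponbare/93-11, 25.5% were listed in 93-11 alone and 14.0% in Nipponbare alone, so its whole list leaned the same way. Over all peaks of 93-11/Nipponbare the shares were 20.9 and 20.2%. This direction rests on the labels of 2 libraries and would turn if their labels were exchanged; batch or preparation and direction of cross cannot be told apart with 1 library each.

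Peaks of neither parent and of both parents were also unequal. Nipponbare/93-11-only peaks were listed in neither parent in 2010 cases (39.6%, 38.2 to 40.9%), against 1420 of the 93-11/Nipponbare-only peaks (26.2%). Both parents listed 494 (9.72%) of the former and 895 (16.5%) of the latter. Shared peaks are nearly the same places in either hybrid's list, so their make-up had to be alike. It was 57.9 and 57.8% in both parents, 22.9 and 23.0% in 93-11 alone, 13.6 and 13.5% in Nipponbare alone, and 5.62 and 5.61% in neither.

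**Figure D2:**
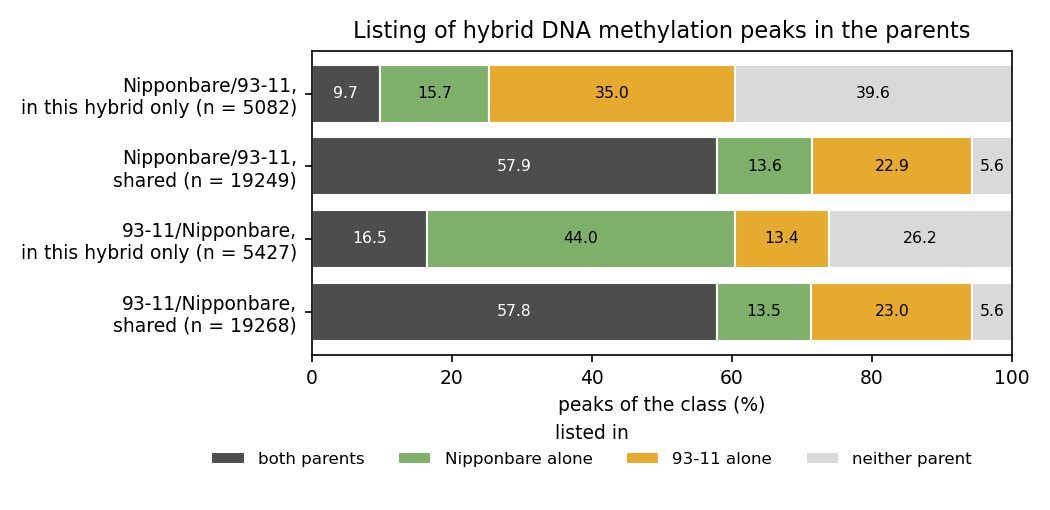
Share of peaks (x axis, percent) listed in both parents, Nipponbare alone, 93-11 alone or neither parent, for hybrid-only and shared DNA methylation peaks of each hybrid (4 bars, with the number of peaks). The bars of shared peaks look alike because they hold nearly the same places. Among hybrid-only peaks, 93-11 alone holds 35.0% of those of Nipponbare/93-11 and Nipponbare alone 44.0% of those of 93-11/Nipponbare.

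Read from the parents' side, peaks listed in both parents were the least often hybrid-only. Among peaks that both parents listed, 4.25% (3.89 to 4.63%) in Nipponbare/93-11 and 7.43% (6.97 to 7.92%) in 93-11/Nipponbare were hybrid-only. Among those of 93-11 alone the shares were 28.8% (27.6 to 29.9%) and 14.1% (13.1 to 15.0%), and among those of Nipponbare alone 23.4% (21.9 to 24.8%) and 47.8% (46.4 to 49.2%). Peaks listed in neither parent were hybrid-only most often, at 65.0% (63.3 to 66.7%) and 56.8% (54.8 to 58.7%). The parents also had 1 library each.

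The parental difference was present on every nuclear chromosome. Listing in 93-11 alone ranged from 30.8% of Nipponbare/93-11-only peaks on chromosome 12 to 40.5% on chromosome 3, and from 10.7% (chromosome 10) to 15.7% (chromosome 12) of 93-11/Nipponbare-only peaks. Listing in Nipponbare alone ranged from 10.6% (chromosome 3) to 20.5% (chromosome 12) and from 41.1% (chromosome 5) to 49.9% (chromosome 9). The ranges of the hybrids did not overlap for either state, and the difference had the same sign on 12 of 12 chromosomes, all of which come from the same libraries. It varied with peak width: in 93-11/Nipponbare, Nipponbare alone listed 52.3% of hybrid-only peaks of 1000 to 1500 bp and 27.7% of those over 7500 bp. In Nipponbare/93-11, 93-11 alone listed 42.6% of hybrid-only peaks of 3000 to 4000 bp, but no wider class of that hybrid had a clear lean. There, 93-11 alone and Nipponbare alone listed 19.8 and 20.3% from 4000 to 5000 bp. The shares were 22.6 and 22.2% up to 7500 bp, and 22.9 and 24.1% above that.

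The difference between the hybrids in parental listing had the opposite sign in each histone mark from that in DNA methylation. Of hybrid-only H3K4me3 peaks, Nipponbare alone listed 33.2% (31.1 to 35.4%) in Nipponbare/93-11 and 13.4% (11.4 to 15.6%) in 93-11/Nipponbare. For H3K9ac, Nipponbare alone listed 759 of 2815 and 224 of 1173 hybrid-only peaks, and for H3K27me3 the shares were 22.3 and 14.0%. Listing in 93-11 alone was lower in Nipponbare/93-11 than in 93-11/Nipponbare for each histone mark, at 19.7 and 32.1% for H3K4me3, 19.2 and 27.3% for H3K9ac and 22.9 and 29.6% for H3K27me3. Within Nipponbare/93-11, hybrid-only H3K27me3 peaks were listed about equally in 93-11 alone (22.9%) and Nipponbare alone (22.3%), but its shared peaks were not, at 13.6 and 10.4%. Of all its H3K27me3 peaks in 93-11 alone 19.4% were hybrid-only, and of those in Nipponbare alone 23.5%. Shared peaks of that hybrid stood at 6.19% in 93-11 alone and 8.57% in Nipponbare alone for H3K4me3, and at 5.87 and 9.84% for H3K9ac. As differences, Nipponbare alone stood at -28.3 percentage points for DNA methylation and at 19.8, 7.87 and 8.28 points for the histone marks in that order, Nipponbare/93-11 minus 93-11/Nipponbare. The difference between the marks was not tested, and each mark again has 1 library per hybrid. If the labels of the hybrids' DNA methylation libraries were exchanged, DNA methylation would have the sign of the histone marks. Such an exchange could not be checked here.

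**Figure D3:**
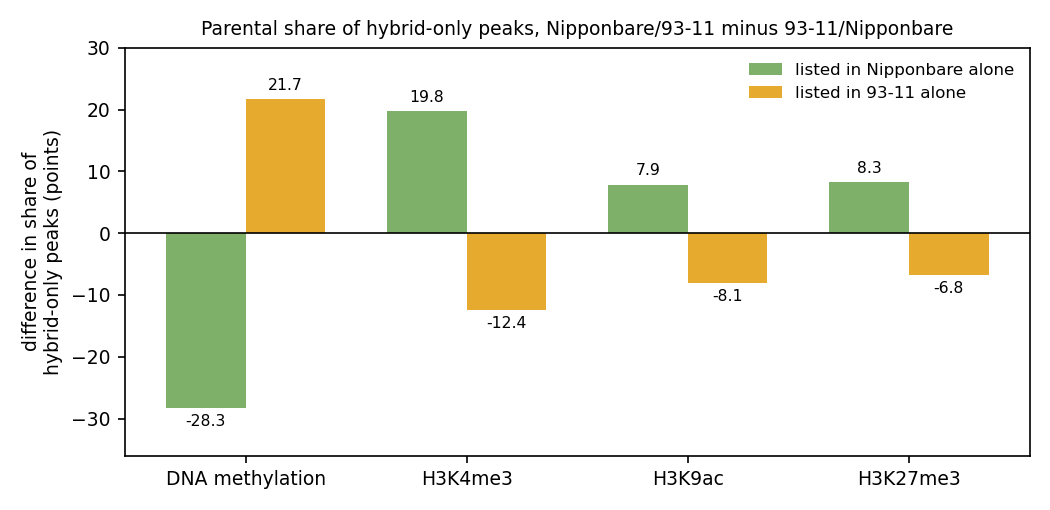
Difference in the share of hybrid-only peaks listed in Nipponbare alone (green) or 93-11 alone (yellow) of the parents, Nipponbare/93-11 minus 93-11/Nipponbare (y axis, percentage points), for DNA methylation and 3 histone marks (x axis). DNA methylation stands at -28.3 and 21.7 points, and H3K4me3, H3K9ac and H3K27me3 have the opposite signs.

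At hybrid-only methylation peaks, H3K4me3 was listed about as often in the hybrid with the methylation as in the other. Nipponbare/93-11-only methylation peaks carried H3K4me3 in that hybrid in 12.0% of cases (11.1 to 12.9%) and in 93-11/Nipponbare, where the methylation was not listed, in 12.9% (12.0 to 13.9%). For 93-11/Nipponbare-only peaks, H3K4me3 was listed on 13.9% (13.0 to 14.9%) in the same hybrid and on 13.2% (12.3 to 14.1%) in the other. H3K4me3 in the other hybrid alone was found at 114 Nipponbare/93-11-only peaks, and in the same hybrid alone at 66. At shared peaks of that list the numbers were 451 and 306. At 93-11/Nipponbare-only peaks H3K4me3 was listed in the other hybrid alone at 105 and in the same hybrid alone at 146, and at shared peaks of that list at 340 and 453. H3K4me3 of 93-11/Nipponbare alone was thus the more frequent in every class, whichever hybrid listed the methylation. The H3K4me3 list of 93-11/Nipponbare had 29775 peaks of median width 1481 bp and covered 47.3 Mb. That of Nipponbare/93-11 had 30697 peaks of 1368 bp and covered 45.4 Mb. Whether the difference in width bears on these counts was not tested.

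Most hybrid-only peaks overlapped no histone peak. No histone mark of either hybrid was listed on 79.7% (78.6 to 80.8%) of Nipponbare/93-11-only peaks, against 73.7% (73.1 to 74.4%) of the shared peaks of that list. For 93-11/Nipponbare the shares were 74.5% (73.3 to 75.7%) and 73.9% (73.3 to 74.5%). H3K27me3 of the same hybrid lay on 7.67% (6.96 to 8.44%) of Nipponbare/93-11-only and 11.7% (10.9 to 12.6%) of 93-11/Nipponbare-only peaks, beside 11.8% of the shared peaks of each list. H3K9ac of the same hybrid lay on 13.3% of Nipponbare/93-11-only peaks against 16.8% of shared ones, and on 15.1% against 16.2% in 93-11/Nipponbare.

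Hybrid-only peaks were spread over all chromosomes at similar shares. In Nipponbare/93-11 they ranged from 18.7% (17.0 to 20.5%) on chromosome 7 to 22.3% (20.5 to 24.3%) on chromosome 12. In 93-11/Nipponbare they ranged from 18.5% (16.9 to 20.1%) on chromosome 2 to 24.1% (22.2 to 26.1%) on chromosome 12. On chromosome 2, hybrid-only peaks of Nipponbare/93-11 (469) outnumbered those of 93-11/Nipponbare (417), and on chromosome 4 they stood at 488 and 486, while on the other 10 chromosomes 93-11/Nipponbare had more. Per Mb, Nipponbare/93-11-only peaks were densest on chromosome 11 (15.3) and 93-11/Nipponbare-only peaks on chromosome 12 (16.7).

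**Figure D4:**
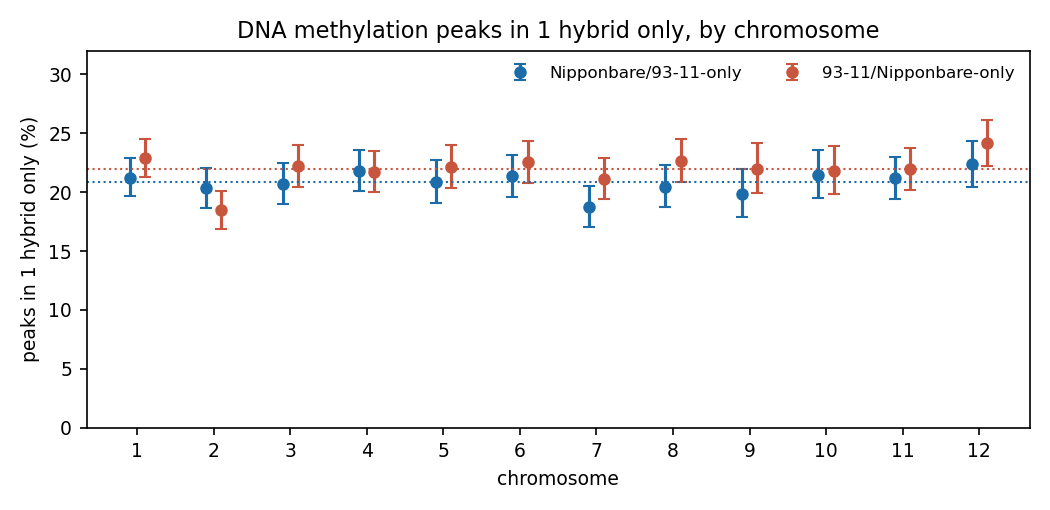
Share of DNA methylation peaks in 1 hybrid only (y axis, percent) on each nuclear chromosome (x axis) for Nipponbare/93-11 (blue) and 93-11/Nipponbare (red), with exact 95% intervals for counting error; dotted lines are the shares of the whole lists, 20.9 and 22.0%. All points lie between 18.5 and 24.1%.

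Distance to the chromosome end went with the share in 1 hybrid and not visibly in the other. Within 1 Mb of the nearer end of the span of the lists, 18.7% (16.7 to 20.8%) of 93-11/Nipponbare peaks were hybrid-only. From 1 to 3 Mb the share was 19.8%, from 3 to 6 Mb 20.5%, from 6 to 10 Mb 22.6%, and beyond 10 Mb 23.3% (22.5 to 24.2%). In Nipponbare/93-11 the share was 21.1% (19.1 to 23.3%) within 1 Mb and 21.1% (20.3 to 22.0%) beyond 10 Mb, with the lowest value of 20.1% from 3 to 6 Mb. Over 366 full windows of 1 Mb, every window held hybrid-only peaks of both hybrids, with a median of 14 of each, 2 to 28 of Nipponbare/93-11 and 3 to 32 of 93-11/Nipponbare. The numbers of the 2 kinds per window had a Pearson correlation of 0.379 (Spearman 0.390). With the H3K4me3 peaks of Nipponbare/93-11 in the same windows, they had correlations of -0.463 (Spearman -0.477) and -0.562 (Spearman -0.585). Windows share libraries and the density of all methylation peaks, with which hybrid-only peaks had correlations of 0.507 and 0.666 (Spearman 0.485 and 0.664).

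The most one-sided windows still held peaks of both hybrids. On chromosome 4 from 32 to 33 Mb there were 20 Nipponbare/93-11-only and 3 93-11/Nipponbare-only peaks, on chromosome 11 from 16 to 17 Mb 22 and 9, and on chromosome 2 from 12 to 13 Mb 25 and 13. In the mirror direction, chromosome 10 from 11 to 12 Mb held 11 Nipponbare/93-11-only and 29 93-11/Nipponbare-only peaks, chromosome 12 from 15 to 16 Mb 10 and 26, and chromosome 12 from 21 to 22 Mb 16 and 31. On chromosome 4 from 32 to 33 Mb, Nipponbare listed 31 and 93-11 36 methylation peaks in all, against 53 in Nipponbare/93-11 and 36 in 93-11/Nipponbare. On chromosome 12 from 15 to 16 Mb, Nipponbare had 99 peaks and 93-11 had 66, against 70 in Nipponbare/93-11 and 86 in 93-11/Nipponbare. In the named windows of chromosomes 11 and 2, Nipponbare had 75 and 74 peaks and 93-11 had 55 and 70. In that of chromosome 10 the parents had 78 and 76 peaks, and on chromosome 12 from 21 to 22 Mb 81 and 67, Nipponbare first. Windows of 500 kb gave another ranking, in which 1 of these 6 windows held a window of the largest excess.

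The differences clustered little along the chromosomes. After a hybrid-only peak, the next peak of Nipponbare/93-11 was hybrid-only in 22.2% of cases (21.1 to 23.4%), and after a shared peak in 20.5% (20.0 to 21.1%). For 93-11/Nipponbare these shares were 24.3% (23.2 to 25.5%) and 21.3% (20.7 to 21.9%). The same pair of shares was 7.68 and 6.14% for H3K4me3 in Nipponbare/93-11, 4.51 and 3.54% for it in 93-11/Nipponbare. Most hybrid-only peaks stood alone between shared ones: 61.0% of the nuclear Nipponbare/93-11-only and 57.7% of the 93-11/Nipponbare-only peaks. Shared peaks made up 79.1 and 78.0% of the whole lists, so most neighbours of any peak were shared. Runs of 5 or more consecutive hybrid-only peaks numbered 14 in Nipponbare/93-11 and 13 in 93-11/Nipponbare, with 72 peaks in each (1.42 and 1.33% of the hybrid-only peaks). When 50% of both peaks had to overlap, 93-11/Nipponbare had 23 such runs and Nipponbare/93-11 had 20. When only peaks of at least the median width of each list were kept, they had 25 and 11 in that order. Under that cut, a shared peak whose partner was removed counted as hybrid-only.

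**Figure D5:**
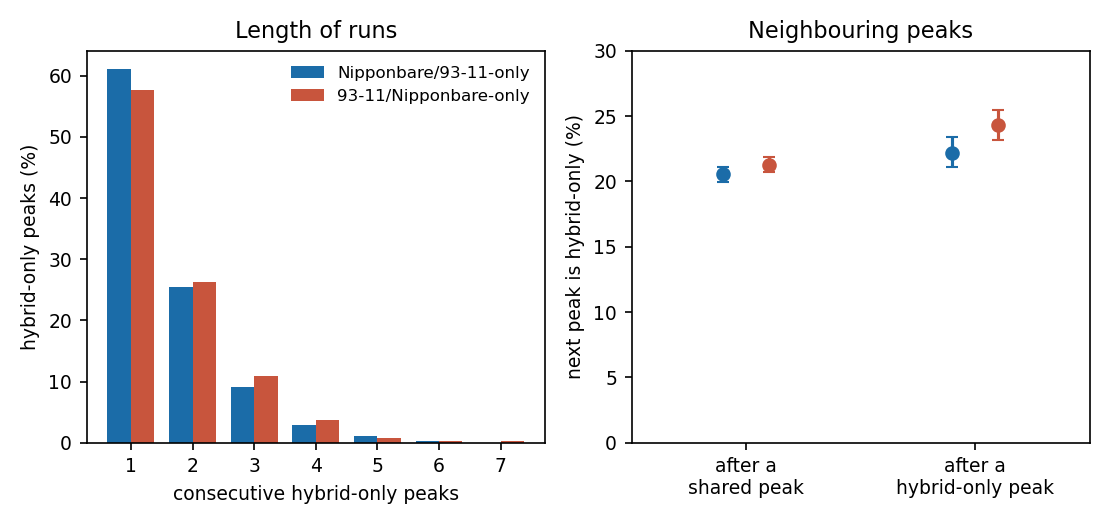
Left, share of nuclear hybrid-only peaks (y axis, percent) by the number of consecutive hybrid-only peaks in their run (x axis); right, share of next peaks that are hybrid-only (y axis, percent) after a shared or a hybrid-only peak, with exact 95% intervals, for Nipponbare/93-11 (blue) and 93-11/Nipponbare (red). Peaks that stand alone make up 61.0 and 57.7%, and the next peak is hybrid-only in 20.5 to 24.3% of cases.

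Hybrid-only peaks of the 2 crosses were interleaved. Joining both lists gave 29685 nuclear regions, of which 19191 held peaks of both hybrids, 5078 of Nipponbare/93-11 alone and 5416 of 93-11/Nipponbare alone. The region after a Nipponbare/93-11-only region was another of that kind in 18.2% of cases (17.2 to 19.3%) and a 93-11/Nipponbare-only region in 18.5% (17.5 to 19.6%). After a 93-11/Nipponbare-only region these shares were 17.8% for the opposite kind and 19.9% (18.8 to 21.0%) for the same. After a region of both hybrids they were 16.6% and 17.7%.

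For each hybrid the 3 runs with most peaks were located, with ties settled by the longer span, and they spanned 107 to 162 kb each. Nipponbare/93-11 had 2 runs of 6 and 12 of 5, and 93-11/Nipponbare had 2 runs of 7, 3 of 6 and 8 of 5, so runs with as many peaks as the last named in each hybrid occurred elsewhere. In Nipponbare/93-11, 6 hybrid-only peaks followed each other on chromosome 4 from 34412976 to 34557070, 4 of them listed in 93-11 alone and 2 in neither parent, with 1 peak of 93-11/Nipponbare between them. Another 6 lay on chromosome 10 from 16560380 to 16667058, 5 of them listed in 93-11 alone, with 3 peaks of 93-11/Nipponbare between. The third, with 5 peaks, lay on chromosome 8 from 13069993 to 13231673, where each parent listed 8 peaks and 93-11/Nipponbare 1. Of these 5 hybrid-only peaks, 2 were listed in 93-11 alone, 2 in Nipponbare alone and 1 in both parents. In the run on chromosome 4, both hybrids listed 20 H3K4me3 peaks.

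In 93-11/Nipponbare, 7 hybrid-only peaks lay on chromosome 1 from 33778370 to 33931050, where Nipponbare/93-11 listed 0 peaks, Nipponbare 8 and 93-11 6. In that run 3 of the 7 were listed in Nipponbare alone, 2 in both parents, 1 in 93-11 alone and 1 in neither. H3K4me3 peaks there numbered 11 in Nipponbare/93-11 and 9 in 93-11/Nipponbare. The other run of 7 lay on chromosome 10 from 1904048 to 2016630, with 12 peaks in Nipponbare, 4 in 93-11 and 3 in Nipponbare/93-11. A run of 6 on chromosome 1 from 28305676 to 28415114 held 4 peaks of Nipponbare, 2 of 93-11 and 1 of Nipponbare/93-11.

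The widest hybrid-only regions lay mostly away from histone marks, as did most hybrid-only peaks of any width. Over all hybrid-only peaks, 79.7% in Nipponbare/93-11 and 74.5% in 93-11/Nipponbare overlapped no histone peak of either hybrid. In Nipponbare/93-11 the widest was 88321 bp long, on chromosome 1 from 17071654 to 17159975, and Nipponbare alone of the parents listed a peak there, under 20313 bases. The second, of 66424 bp, lay on chromosome 6 from 15423584 to 15490008, with a 93-11 peak under 2744 bases, H3K9ac in 93-11 and H3K27me3 in Nipponbare. A region of 14982 bp on chromosome 9, from 2570175 to 2585157, and one of 14899 bp on chromosome 1, from 21335146 to 21350045, had no methylation peak in a parent and no histone peak in any line. On chromosome 4 from 26640635 to 26654376 (13741 bp), Nipponbare listed methylation under 10284 bases and H3K9ac, and both hybrids and both parents listed H3K27me3.

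In 93-11/Nipponbare the widest region lay on chromosome 4 from 9745190 to 9827450 (82260 bp), with a Nipponbare peak under 19927 bases, and the nearest peak of Nipponbare/93-11 was 33407 bp away. A region of 20427 bp followed, on chromosome 11 from 10636555 to 10656982, listed in neither parent. The next, of 17602 bp, lay on chromosome 5 from 12685020 to 12702622 and was listed in Nipponbare alone, under 3587 bases. Neither parent listed the region of 15470 bp on chromosome 1, from 3153609 to 3169079, which lay 315 bp from a peak of Nipponbare/93-11, or that of 13855 bp on chromosome 6, from 14099312 to 14113167. None of these 5 regions overlapped a histone peak in any line.

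The widest hybrid-only regions that both parents listed differed in how much of them the parents covered. On chromosome 7 from 25194466 to 25206685 (12219 bp), 93-11/Nipponbare listed methylation where 93-11 had a peak from 25194503 to 25206662 and Nipponbare had peaks under 11940 bases. The Nipponbare/93-11 list had no peak within 8465 bp, and H3K4me3 was listed there in Nipponbare and Nipponbare/93-11 and in neither 93-11 nor 93-11/Nipponbare. H3K9ac was listed there in both parents and in neither hybrid. On chromosome 10 from 5959165 to 5971442 (12277 bp), 93-11/Nipponbare was also alone among the hybrids, with 93-11 peaks under 12022 bases and Nipponbare peaks under 4768. In Nipponbare/93-11, such a region lay on chromosome 11 from 21237368 to 21246831 (9463 bp), with 93-11 and Nipponbare peaks under 9036 and 8006 bases and the other hybrid's nearest peak 7661 bp away. On chromosome 9 from 4078085 to 4087947 (9862 bp) the parents covered less, with 4076 bases in Nipponbare and 1664 in 93-11.

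Regions of 1 parent and 1 hybrid were named in the same way. With 93-11 alone of the parents, Nipponbare/93-11 listed chromosome 10 from 577304 to 589660 (12356 bp), where 93-11 had methylation under 5069 bases and H3K27me3 was listed in Nipponbare and Nipponbare/93-11. With the same parent, 93-11/Nipponbare listed 13378 bp on chromosome 12, from 12803405 to 12816783, and 12787 bp on chromosome 2, from 29958200 to 29970987, with no histone peak at either.

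The widest methylation peaks of 1 hybrid with H3K4me3 in the other alone included the region on chromosome 7 and the following. On chromosome 6 from 3614708 to 3622142 (7434 bp), 93-11/Nipponbare and 93-11 listed methylation, and Nipponbare/93-11 and Nipponbare listed H3K4me3. H3K9ac was listed there in Nipponbare and in both hybrids, so also in the hybrid with the methylation. On chromosome 6 from 1182784 to 1189773 (6989 bp), Nipponbare/93-11 and both parents listed methylation, while H3K4me3 was listed in 93-11/Nipponbare and 93-11, and each line had H3K9ac. On chromosome 12 from 8714652 to 8720685 (6033 bp), Nipponbare/93-11 alone of the 4 lines listed methylation, and H3K4me3 was listed in 93-11/Nipponbare and Nipponbare. H3K9ac was listed there in 93-11 and in both hybrids.

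Width could differ greatly within a shared region. On chromosome 4 from 9115549 to 9134844, Nipponbare/93-11 had 1 peak of 19295 bp and 93-11/Nipponbare 1 of 2870 bp. On the same chromosome from 8764045 to 8783893, the peaks were 12356 and 19848 bp wide in that order, neither parent listed methylation, and each of the 4 lines had H3K4me3 and H3K9ac there. The widest shared region, on chromosome 9 from 2787791 to 2885478, had peaks of 73396 and 97687 bp.

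The organelle sequences held few peaks. On the plastid sequence Nipponbare/93-11 listed 4 peaks and 93-11/Nipponbare 5, with 2 of each shared. On the mitochondrial sequence they listed 2 and 8, none of them shared, which covered 6766 and 35878 bp. These peaks are left out of the values by chromosome, width and neighbour.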

How the data were processed

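The DNA methylation lists of both hybrids were compared, with 1 library each, and the parents' lists and the histone lists of hybrids and parents were used beside them. The deposited files give chromosome, start and end of peaks in 3 columns with no header and no height, score or p-value. Per the labels' protocols the DNA came from McrBC enrichment or chromatin immunoprecipitation. The build is not given in the sources used here, nor are the aligner, the peak caller, its threshold and its control; read depth is unknown. Positions are printed as in the files, and width is end minus start. The gene table at hand belongs to another assembly, so no gene was named and no sequence was read.

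Peaks were shared at 1 bp of overlap. No p-value was computed. Neighbours, windows, widths and runs use the 12 nuclear chromosomes. Regions were named by fixed rules: per hybrid the 5 widest hybrid-only peaks, the 2 widest for each parental listing, the 2 widest with H3K4me3 in the other hybrid alone, the 3 runs with most peaks, the 3 windows of 1 Mb with the largest excess, and the 3 widest shared regions. The members, rules and width classes were chosen with earlier results of these data known. Overlaps of 400 peaks were tested against direct comparison, and 400 were equal. Intervals came from scipy 1.17.1 and tables from pandas 2.3.3 with numpy 2.4.6, in Python 3.11.15; figures were drawn with matplotlib 3.10.9. Alternatives are given in the closing section; in them, parental listing kept the 1 bp rule.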

Additional observations from a re-analysis of the deposited data

Results flagged for a closer look

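The difference between the hybrids in the parent that listed their hybrid-only peaks had opposite signs in different marks. For listing in Nipponbare alone, DNA methylation stood at -28.3 percentage points (Nipponbare/93-11 minus 93-11/Nipponbare), while H3K4me3, H3K9ac and H3K27me3 were all above 0. For listing in 93-11 alone, DNA methylation stood at 21.7 points, while the 3 histone marks stood at -12.4, -8.06 and -6.76. With 1 library per mark and hybrid the difference between marks was not tested. An exchange of the labels of the hybrids' DNA methylation libraries would give all marks the same sign, and could not be checked.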

How the results depend on the processing

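With 50% overlap of both peaks required, hybrid-only peaks were 22.9% of Nipponbare/93-11 and 24.0% of 93-11/Nipponbare, their median widths 0.90 and 0.85 of those of shared peaks (0.87 and 0.84 at 1 bp), the next peak after a hybrid-only one was hybrid-only in 24.3 and 26.1%, 93-11/Nipponbare had 23 runs, and 93-11 alone listed 14.5% of its hybrid-only peaks. Counting a peak within 500 bp as shared gave 20.0 and 20.9%, and a width ratio of 0.85 in 93-11/Nipponbare. Lists kept at or above their median width gave 27.4 and 28.4%, 49.1% of bases in both, width ratios of 0.96 and 0.90, next-peak shares of 27.8 and 30.6%, 25 runs in 93-11/Nipponbare, and 12.3% of its hybrid-only peaks in 93-11 alone. There, the next-peak share after a shared peak was 27.2% in Nipponbare/93-11, nearer to that after a hybrid-only peak than in the full lists, and 27.5% in 93-11/Nipponbare, about as far from it as in the full lists. In those lists Nipponbare alone listed 32.1% of 93-11/Nipponbare-only peaks. Each list was cut at its own median width, so a shared peak whose partner fell below the cut counted as hybrid-only. All values from the lists cut by width therefore include peaks that are shared in the full lists. Lists of equal length gave 21.7% for Nipponbare/93-11, above the 21.6% of 93-11/Nipponbare, and width ratios of 0.84 and 0.85. Runs of 3 or more numbered 207 and 260. Of 62 values recomputed for the main comparisons, 25 left the counting interval of the value reported, changed at 2 significant digits where there is no interval, or changed by over 1.5 times for a count of runs, and are given above; 37 did not. No paired analysis was possible because each hybrid had 1 library, and for the same reason no replicate could be left out. The unknown depth and threshold limit every count of hybrid-only peaks.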
